A study of Gossypium hirsutum with 6 samples.

Results

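The mitogen-activated protein kinase (MAPK) cascade was examined in upland cotton (*G. hirsutum*) ovules through the genes that the annotation describes as its kinases. A gene was included if it was protein-coding, its description contained the words mitogen-activated protein kinase, and its counts over the 6 samples summed to 60 or more. Of 136 genes with such a description, 103 reached this minimum, out of 100562 listed genes. They comprised 50 MAPK genes, 15 MAPK kinase (MAPKK) genes, 37 MAPKK kinase (MAPKKK) genes and 1 gene for a MAPK-binding protein, which was kept apart from the 3 tiers. Of the 33 genes under the minimum, 14 were at 0 counts in all samples, and 7 were described as MAPK, 8 as MAPKK, 17 as MAPKKK and 1 as another MAPK-binding protein. The genes nearest to the limit were *MAPKKK18* and *MAPKKK20* genes, with sums of 42, 59 and 59 outside and 75, 98 and 114 inside.

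A MAPK cascade passes a signal through 3 kinases in turn, as a MAPKKK phosphorylates a MAPKK, and the MAPKK phosphorylates a MAPK on a threonine and a tyrosine of its activation loop. The MAPK then phosphorylates transcription factors, enzymes and microtubule-associated proteins, and phosphatases end the signal by removing these phosphates. In Arabidopsis, MPK3 and MPK6 act in immunity, stomatal patterning and ovule integument development, MPK4 in immunity and cytokinesis, and YODA at the top of the stomatal and embryonic pathway. Since the activity of these kinases is set largely by phosphorylation, the amount of mRNA measured here is not a measure of their activity.

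RNA was sequenced from wild type ovules of line ZM24, which the study took at the day of anthesis and cultured for 2 d with water (CK, 3 samples) or with 10 μmol/L putrescine (Put, 3 samples). Put is the diamine from which the larger polyamines are made, and fibers are single cells that grow from the ovule surface. The replicates are random divisions of the collected ovules, so the p-values measure the spread between samples that may share plants. The contrast of Put with CK is the only one in the study, and each log2 fold change below is that of Put over CK, so a positive value means a higher level with Put.

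The counts summed to between 16974557 and 19463059 per sample, and the 103 genes took between 0.145% and 0.149% of them. The limit set by a count of 3 was between 0.153 and 0.179 CPM (counts scaled by a TMM-normalized library size), and this floor covers counting error only. Markers of ovule and seed coat, 25 genes of which 4 were at 0, summed to between 2110 and 2146 FPKM (fragments scaled by gene length and library size) in CK and between 2088 and 2136 FPKM in Put. Both copies of the integument regulator *YABBY4* were among those at 0, whereas the *AGL11* and anthocyanidin reductase genes were expressed. Fiber markers, 134 genes of which 22 were at 0, summed to between 3593 and 3663 FPKM in CK and between 12776 and 12945 FPKM in Put, mostly from protein E6 and expansin-A4. The median log2 fold change of the 75 fiber markers that were tested was only 0.16. Leaf markers (66 genes, 10 at 0) lay between 207 and 212 FPKM in CK and between 172 and 175 FPKM in Put, and pollen and anther markers (39 genes, 19 at 0), mostly *profilin-1*, between 243 and 248 FPKM in CK and between 313 and 328 FPKM in Put. The fiber, leaf, and pollen and anther sums did not overlap between CK and Put, whereas the ovule and seed coat sums did. Single markers changed both ways in every list. By the edgeR test described below (adjusted p under 0.05), 5 of 15 tested ovule and seed coat markers were higher and 8 lower (86.7%). Among fiber markers 29 were higher and 17 lower of 75 (61.3%), and among leaf markers 1 and 14 of 42 (35.7%). Among pollen and anther markers it was 6 and 1 of 11 (63.6%), against 36.6% of all tested genes. The part of these cell types in the results that follow was not tested. In whole ovules, fewer cells of a type and less RNA per cell cannot be told apart.

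The cascade was compared between Put and CK with edgeR's quasi-likelihood test, and genes with a Benjamini-Hochberg adjusted p under 0.05 over all 51764 tested genes were taken as differentially expressed genes (DEG). All 103 genes passed the filter on low counts. Of them, 21 were higher and 17 were lower with Put. This is 36.9%, near the 36.6% of all tested genes that were DEG, with 18.4% higher and 18.2% lower. In CPM, all Put samples lay above all CK samples in 20 genes and below them in 21, against 22.8% and 22.6% of all tested genes (45.4% in either direction). A log2 fold change of at least 1 was reached by 3 DEG, all higher, against 3.8% of all tested genes that were higher and 1.92% that were lower by this much (5.72% in either direction). The median absolute log2 fold change of the DEG was 0.39 in the cascade and 0.43 among all DEG.

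Each tier held DEG in both directions. Of the 50 MAPK genes, 11 were higher and 8 lower (38%), with log2 fold changes from -0.55 to 1.21. Of the 15 MAPKK genes, 4 were higher and 2 lower (40%), from -0.45 to 0.78. Of the 37 MAPKKK genes, 6 were higher and 7 lower (35.1%), from -0.45 to 1.41. The median log2 fold change was -0.013 for MAPK, -0.035 for MAPKK and -0.097 for MAPKKK genes, against 0.00088 for all tested genes. The share of DEG in each tier was near that of all tested genes.

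The summed expression of the tiers changed by small amounts. For the MAPK genes it was 402, 391 and 395 FPKM in CK and 416, 421 and 419 FPKM in Put, so all Put samples were above all CK samples. For the MAPKK genes it was 108, 108 and 113 FPKM in CK and 112, 114 and 116 FPKM in Put, and the ranges overlapped. For the MAPKKK genes it was 159, 158 and 160 FPKM in CK and 151, 153 and 148 FPKM in Put, with all Put samples below CK. The MAPK-binding protein gene (LOC107890980 on D09), whose product has no kinase domain listed, had a log2 fold change of -0.04 and was not a DEG.

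**Figure D1:**
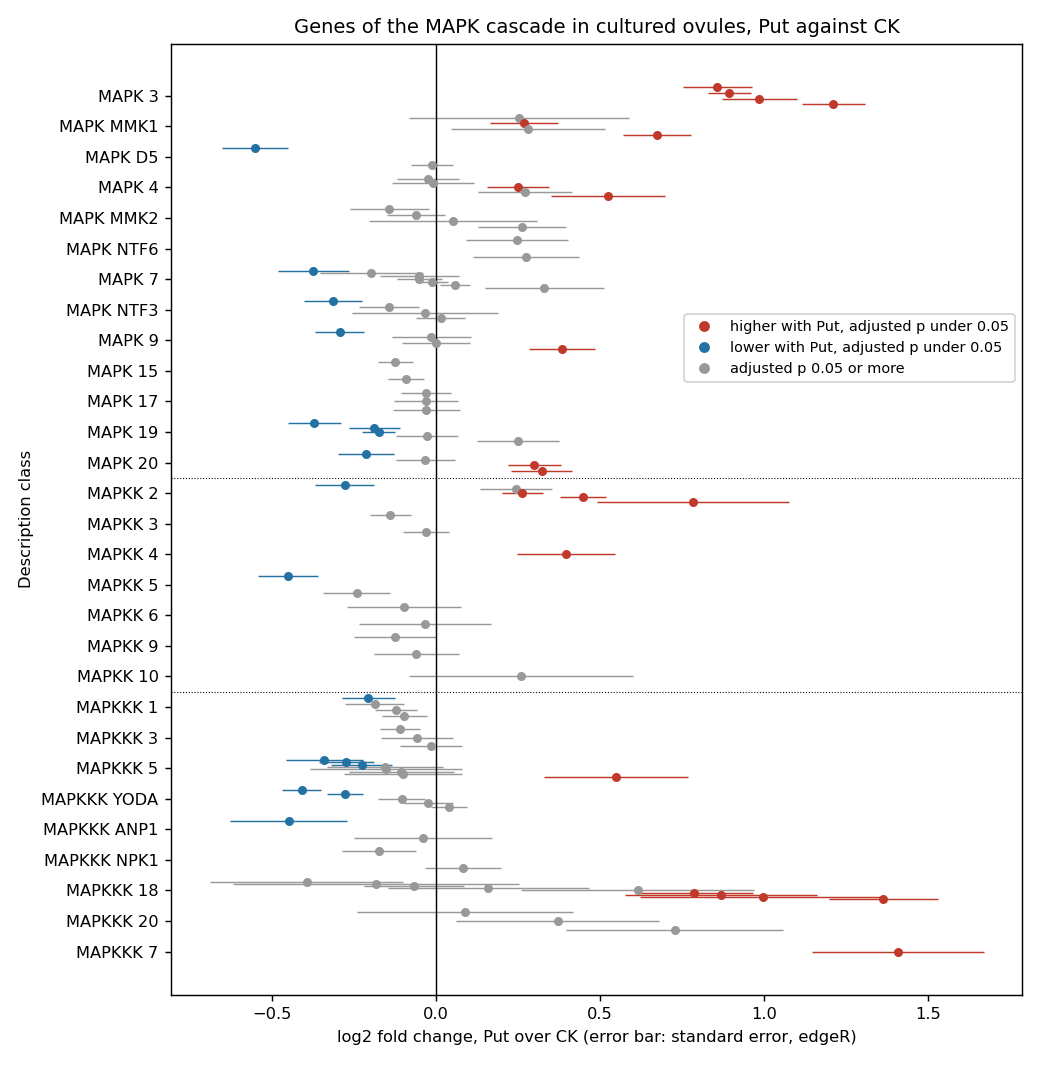
Log2 fold change of Put over CK (horizontal axis) for the 102 kinase genes, one point per gene with its standard error derived from the edgeR fit, grouped by the class named in the annotation (vertical axis). Dotted lines divide MAPK, MAPKK and MAPKKK. The 4 *MAPK3* genes lie between 0.86 and 1.21, the classes *MAPK17*, *MAPK15* and *MAPKK6* lie near 0, and the *MAPKKK18* class spreads from -0.40 to 1.36.

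Within the MAPK tier the clearest change was in *MAPK3*, a stress and developmental MAPK of the group that includes Arabidopsis MPK3 and MPK6. Its 4 genes, a pair on A03 and D03 and a pair on A05 and D05, were all higher with Put. The summed expression of the class rose from 33.5 ± 1.48 FPKM (SD, n = 3) in CK to 65.5 ± 3.22 FPKM in Put. No other MAPK gene reached a log2 fold change of 0.70.

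The most changed of them was LOC107950317 on D03, located in the Gossypium_hirsutum_v2.1 assembly from 48774837 to 48777516 on the plus strand. It had 8.62, 8.92 and 9.20 CPM in CK and 21.6, 21.7 and 18.6 CPM in Put, giving a log2 fold change of 1.21 (standard error, SE, 0.095, adjusted p = 7.85e-16). Each Put sample was above the highest CK sample, and it was the only MAPK gene with a log2 fold change of at least 1. Its partner on A03, LOC121224226 (6740962 to 6743910, minus strand), had 6.13, 6.37 and 6.60 CPM in CK and 11.98, 12.6 and 13.3 CPM in Put, giving a log2 fold change of 0.99 (SE 0.11, adjusted p = 2.99e-10). A noncoding RNA annotated across it on the other strand was at 0 counts in all samples.

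The pair on chromosomes 05 was expressed at unequal levels but changed by similar amounts. LOC107959059 on A05 (9467952 to 9470411, plus strand) had 24.97, 21.3 and 24.99 CPM in CK and 46.2, 44.6 and 41.4 CPM in Put, giving a log2 fold change of 0.89 (SE 0.065, adjusted p = 4.75e-17). With a mean of 22.5 FPKM it was the third most expressed MAPK gene per length. LOC107906192 on D05 (8426225 to 8428361, plus strand) had 8.98, 8.15 and 7.38 CPM in CK and 15.3, 15.2 and 13.9 CPM in Put, giving a log2 fold change of 0.86 (SE 0.11, adjusted p = 1.72e-09). In all 4 genes the CK and Put samples were separated by a gap wider than the spread of either group.

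The other classes of this group are named after alfalfa *MMK1* and pea *D5*, both relatives of Arabidopsis MPK6, and they held DEG in both directions. *MMK1* on D02 (LOC107903096) had 9.81, 9.73 and 11.02 CPM in CK and 14.9, 14.7 and 19.2 CPM in Put, giving a log2 fold change of 0.67 (SE 0.10, adjusted p = 3.57e-07). Its partner on A02 (LOC107927498) had 10.6, 10.04 and 9.46 CPM in CK and 12.47, 12.50 and 11.3 CPM in Put. Its log2 fold change of 0.27 (adjusted p = 0.0389) was past the threshold by little, and DESeq2 gave an adjusted p of 0.0898, one of 7 alternative fits that lost the call. The *MMK1* pair on A10 and D10 was expressed at between 0.76 and 3.63 CPM with overlapping groups, and the D10 copy (LOC107914583), with 272 counts in all, is overlapped on the other strand by a *FAM133* gene with 807.

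*D5* on D02 (LOC107910669) was the MAPK gene with the largest decrease. It had 31.2, 24.4 and 19.3 CPM in CK and 15.1, 16.96 and 19.1 CPM in Put, so that the lowest CK and the highest Put sample were nearly equal. The log2 fold change was -0.55 (SE 0.10, adjusted p = 9.11e-06), and it ranged from -0.70 to -0.36 over the alternative fits. Of these, DESeq2 gave an adjusted p of 0.0494, past the threshold by little, and limma on FPKM without a filter gave 0.0534. *D5* on A03 (LOC107887044) had 30.2, 31.3 and 31.0 CPM in CK and 29.8, 29.3 and 32.6 CPM in Put, giving a log2 fold change of -0.013 that was not significant.

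**Figure D2:**
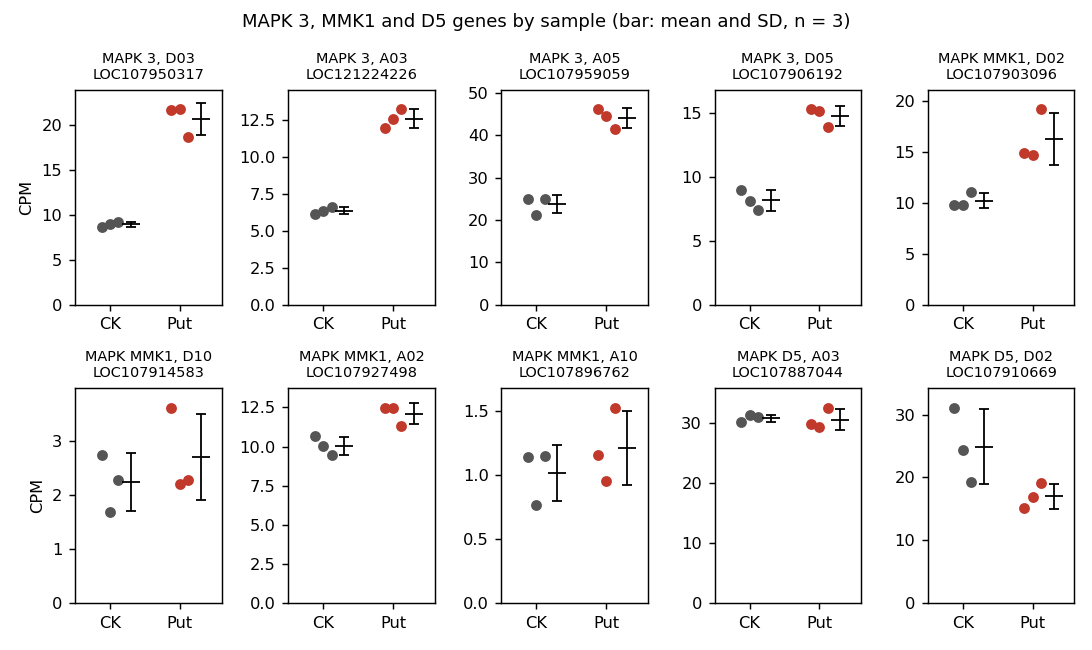
CPM (vertical axis, from 0) of the 10 *MAPK3*, *MMK1* and *D5* genes in each sample of CK (grey) and Put (red), with the mean and SD (n = 3) beside the points. In the *MAPK3* panels and *MMK1* on D02 the Put points lie clear of the CK points, whereas CK points of *D5* on D02 extend from 31.2 down to 19.3, next to the highest Put point at 19.1.

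The MAPK genes related to Arabidopsis MPK4 comprised 11 genes named *MAPK4*, *MMK2* and *NTF6*. With Put, 2 were higher and 0 lower (18.2%, against 36.6% of all tested genes). *MAPK4* on D12 (LOC107945951) had 3.74, 3.11 and 3.27 CPM in CK and 5.603, 4.88 and 4.05 CPM in Put, giving a log2 fold change of 0.52 (SE 0.17, adjusted p = 0.0139). Without Put replicate 1 its adjusted p was 0.118, and without CK replicate 2 it was 0.0584. *MAPK4* on A07 (LOC107955272) had 12.8, 11.6 and 11.8 CPM in CK and 14.4, 14.1 and 14.7 CPM in Put, giving a log2 fold change of 0.25 (adjusted p = 0.0328, DESeq2 0.0787), a call lost in 7 of the 16 alternative fits. It lies 40405 bp from an *MMK2* gene on the same strand (LOC107955273), which was not a DEG at a log2 fold change of -0.14. None of the 4 *MMK2* and 2 *NTF6* genes passed the test.

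The MAPK genes related to Arabidopsis MPK1, MPK2 and MPK7 comprised 11 genes named *MAPK7* and *NTF3*. Of these, 0 were higher and 2 lower (18.2%, against 36.6% of all tested genes). The group included the most expressed MAPK genes per length. *MAPK7* on A11 (LOC107924254), at a mean of 27.3 FPKM, had 57.1, 56.1 and 57.0 CPM in CK and 56.5, 59.9 and 60.8 CPM in Put. *MAPK7* on D11 (LOC107912015), at 23.4 FPKM, had 49.0, 49.1 and 49.6 CPM in CK and 49.1, 47.9 and 49.3 CPM in Put. The groups overlapped in both, with log2 fold changes of 0.057 (SE 0.047) and -0.013 (SE 0.050) and adjusted p of 0.366 and 0.872.

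The genes of this group that were lower were *MAPK7* on A10 and *NTF3* on A05. *MAPK7* on A10 (LOC107897619) had 12.4, 11.6 and 11.9 CPM in CK and 8.24, 8.99 and 10.4 CPM in Put, giving a log2 fold change of -0.37 (SE 0.11, adjusted p = 0.00485). Without Put replicate 1 its adjusted p was 0.0515. *NTF3* on A05 (LOC107957941) had 18.02, 19.3 and 16.9 CPM in CK and 15.9, 14.6 and 13.1 CPM in Put, giving a log2 fold change of -0.32 (SE 0.089, adjusted p = 0.00367). The sum of the *MAPK7* class was 76.5 ± 0.753 FPKM in CK and 75.5 ± 1.77 FPKM in Put, and the ranges overlapped.

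The remaining 18 MAPK genes, named *MAPK9*, *MAPK15*, *MAPK17*, *MAPK19* and *MAPK20*, belong to the plant group with a TDY activation loop. Of these, 3 were higher and 5 lower (44.4%, against 36.6% of all tested genes). *MAPK19* decreased in 3 of its 5 genes, and the class sum was 50.7, 49.6 and 52.3 FPKM in CK and 45.8, 44.9 and 44.2 FPKM in Put, without overlap. *MAPK19* on D01 (LOC107928111) changed most, with 22.2, 20.4 and 24.2 CPM in CK and 17.7, 17.7 and 16.2 CPM in Put, giving a log2 fold change of -0.37 (SE 0.081, adjusted p = 1.8e-04). *MAPK19* on A11 (LOC107941425), the most expressed of the class by FPKM, had a log2 fold change of -0.18 (adjusted p = 0.00501), and that on D05 (LOC121216778) of -0.19 (adjusted p = 0.0493, DESeq2 0.103). The call for D05 was lost in 12 of the 16 alternative fits.

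*MAPK9* held genes that changed in opposite directions, and *MAPK20* did so only by a call that was lost in 9 of the 16 alternative fits. The *MAPK20* pair on A09 (LOC107888478) and D09 (LOC107931341) was higher, with log2 fold changes of 0.32 and 0.30 and calls lost in 3 and 1 of these fits, and *MAPK20* on D04 (LOC107959718) was lower at -0.21 (adjusted p = 0.0439, DESeq2 0.104), with overlapping groups. *MAPK9* on A11 (LOC107923818) had 9.86, 10.1 and 10.96 CPM in CK and 13.1, 13.3 and 13.96 CPM in Put, giving a log2 fold change of 0.38 (SE 0.10, adjusted p = 0.00173). *MAPK9* on D12 (LOC107941462) had 30.5, 27.0 and 27.7 CPM in CK and 21.0, 26.4 and 22.1 CPM in Put, giving a log2 fold change of -0.29 (SE 0.075, adjusted p = 0.00123). None of the 2 *MAPK15* genes, with log2 fold changes of -0.13 and -0.093, and none of the 3 *MAPK17* genes, all at -0.03, passed the test.

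Among the MAPKK genes, the changes lay mainly in *MAPKK2* and *MAPKK5*. In Arabidopsis, MKK2 acts upstream of MPK4 in cold and salt responses, and MKK4 and MKK5 activate MPK3 and MPK6. The *MAPKK2* class was the most expressed, and its sum was 50.6, 51.0 and 51.0 FPKM in CK and 57.4, 59.2 and 61.2 FPKM in Put. Of its 5 genes, 3 were higher and 1 lower. The *MAPKK5* class had 14.4, 14.1 and 14.4 FPKM in CK and 11.3, 12.01 and 10.96 FPKM in Put, in both genes below CK.

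*MAPKK2* on A06 (LOC107897718, 19281181 to 19284614, minus strand) had 20.9, 23.1 and 22.6 CPM in CK and 29.1, 29.7 and 32.1 CPM in Put, giving a log2 fold change of 0.45 (SE 0.070, adjusted p = 4.69e-07). Its partner on D06 (LOC107901094), the most expressed MAPKK gene per length at 18.2 FPKM, had 27.2, 27.98 and 28.3 CPM in CK and 33.3, 34.2 and 32.6 CPM in Put, giving a log2 fold change of 0.26 (SE 0.063, adjusted p = 6.02e-04). Both copies were separated between the groups. *MAPKK2* on A07 (LOC121231956) had only 20, 18 and 24 counts in CK and 38, 30 and 28 in Put. Its log2 fold change of 0.78 (SE 0.29, adjusted p = 0.0297) was the largest of the tier, and with DESeq2 its adjusted p was 0.0699.

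The *MAPKK2* pair on chromosomes 05 had log2 fold changes of opposite sign, and the ratio of its copies overlapped between CK and Put. The D05 copy (LOC107907123) had 16.8, 18.4 and 17.8 CPM in CK and 13.4, 16.2 and 14.1 CPM in Put, giving a log2 fold change of -0.28 (SE 0.089, adjusted p = 0.0103), which was 0.0825 without Put replicate 1 and 0.0552 without CK replicate 2. The A05 copy (LOC107937701) had 12.9, 9.89 and 10.2 CPM in CK and 12.47, 11.5 and 15.1 CPM in Put, giving a log2 fold change of 0.24 that missed the threshold (adjusted p = 0.0749).

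*MAPKK5* on A05 (LOC107960759, 10829634 to 10832537, plus strand) had 16.7, 18.6 and 16.4 CPM in CK and 12.4, 13.0 and 12.4 CPM in Put, giving a log2 fold change of -0.45 (SE 0.091, adjusted p = 5.39e-05). *MAPKK5* on D05 (LOC107906348) had 12.9, 11.6 and 13.1 CPM in CK and 10.5, 11.3 and 10.03 CPM in Put. All its Put samples were below CK, but its log2 fold change of -0.24 missed the threshold (adjusted p = 0.059). The only *MAPKK4* gene that was measured, on D06 (LOC107963220), had 4.10, 5.50 and 5.25 CPM in CK and 5.77, 6.37 and 7.45 CPM in Put, giving a log2 fold change of 0.40 (adjusted p = 0.0319, DESeq2 0.0814). It fell short in 8 of the 16 alternative fits.

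The *MAPKK3*, *MAPKK6*, *MAPKK9* and *MAPKK10* genes, 7 in all, included no DEG. MKK3 feeds the MPK1, MPK2 and MPK7 group in Arabidopsis, and its copy on A11 (LOC107924381) had 32.1, 32.97 and 34.2 CPM in CK and 30.5, 29.7 and 29.9 CPM in Put, giving a log2 fold change of -0.14 (adjusted p = 0.0704). The D11 copy (LOC107911772) was at -0.03 with overlapping groups. MKK6 serves cytokinesis, and its genes on A13 and D13 had log2 fold changes of -0.098 (SE 0.17) and -0.035 (SE 0.20) at between 2.58 and 4.54 CPM.

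In the MAPKKK tier most of the higher DEG had a mean under 2 FPKM and most of the lower ones a mean of at least 2 FPKM. Of the 18 genes with a mean under 2 FPKM, 5 were higher and 1 was lower (33.3%), with a median log2 fold change of 0.12. Of the 19 with at least 2 FPKM, 1 was higher and 6 were lower (36.8%), with a median of -0.11. Both shares were near the 36.6% of all tested genes. The classes were divided in a like manner. The 12 *MAPKKK18* and *MAPKKK20* genes, whose Arabidopsis relatives act in abscisic acid signaling, had 4 higher and 0 lower (33.3%). Their summed expression was 10.8 ± 0.581 FPKM (SD, n = 3) in CK and 14.9 ± 1.98 FPKM in Put. The 24 genes named *MAPKKK1*, *MAPKKK3*, *MAPKKK5*, *YODA*, *ANP1* and *NPK1* had 1 higher and 7 lower (33.3%). Their sum was 148 ± 1.23 FPKM in CK and 135 ± 2.19 FPKM in Put. The division at 2 FPKM and these groups of classes were set after the values were seen, and their difference was not tested.

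The largest increase of the cascade was in a gene described as *MAPKKK7*-like on A08 (LOC107887311, 75262479 to 75269416, plus strand). It had 14, 22 and 29 counts in CK and 54, 50 and 51 in Put, or 0.73, 1.121 and 1.51 CPM in CK and 2.97, 2.98 and 2.99 CPM in Put. The log2 fold change was 1.41 (SE 0.26, adjusted p = 1.58e-05). The deposited annotation gives it a tyrosine kinase domain and, as the closest known protein, a light-sensor protein kinase, unlike the other members, so its place in the tier rests on its description alone.

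*MAPKKK18* on A10 (LOC107924893, 963891 to 967117, plus strand) had 52, 54 and 44 counts in CK and 116, 123 and 107 in Put, or 2.58 ± 0.255 CPM and 6.66 ± 0.577 CPM. Its log2 fold change was 1.36 (SE 0.17, adjusted p = 1.49e-09). Its partner on D10 (LOC107935350, 966585 to 968124, plus strand) had 54, 63 and 52 counts in CK and 111, 79 and 72 in Put, giving a log2 fold change of 0.79 (SE 0.18, adjusted p = 3.55e-04). In both copies all Put samples were above CK, although the D copy varied more between the Put samples.

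Calls for other *MAPKKK18* genes rested on few counts. The gene on A03 (LOC107887511) had 9, 16 and 10 counts in CK and 27, 18 and 18 in Put, giving a log2 fold change of 1.00 (SE 0.37, adjusted p = 0.0313), and with DESeq2 its adjusted p was 0.0783. The gene on A08 (LOC107893392) had 25, 25 and 18 counts in CK and 55, 21 and 36 in Put, so the groups overlapped. Its log2 fold change was 0.87 (SE 0.29, adjusted p = 0.0159), and without Put replicate 1, its highest sample, it was 0.52 (adjusted p = 0.259). The other 5 *MAPKKK18* genes had log2 fold changes from -0.40 to 0.61, and the 3 *MAPKKK20* genes from 0.089 to 0.73, and none passed the test.

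**Figure D3:**
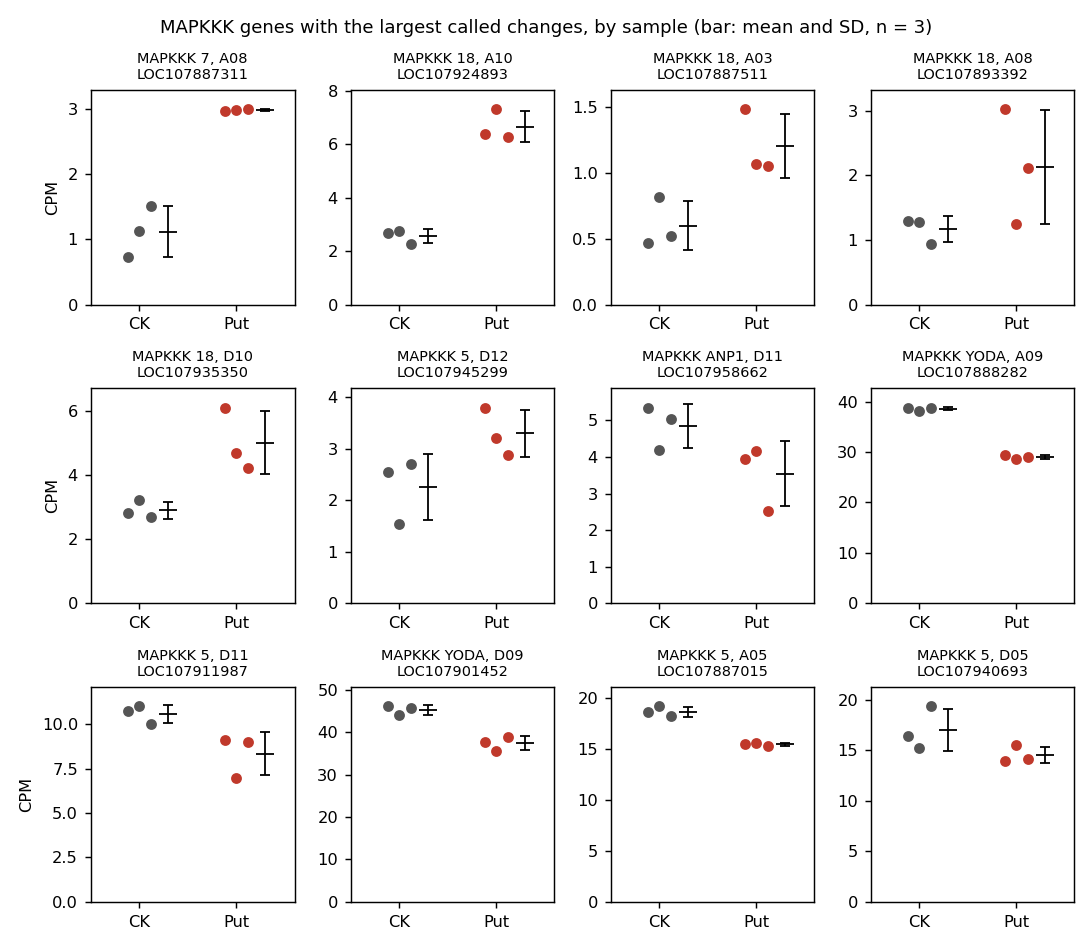
CPM (vertical axis, from 0, scaled to each gene) of the 6 higher and the 6 lower MAPKKK genes with the largest log2 fold changes among DEG, in each sample of CK (grey) and Put (red), with the mean and SD (n = 3) beside the points. The higher genes are all below 8 CPM, whereas *YODA* on A09 falls from 38.6 to 29.01 CPM with a spread under 0.4 CPM in either group.

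*YODA*, the MAPKKK that sets asymmetric cell division in Arabidopsis, was lower in 2 of 5 genes, a pair on A09 and D09. The A09 copy (LOC107888282, 22739222 to 22746176, plus strand) had 38.7, 38.2 and 38.8 CPM in CK and 29.4, 28.7 and 28.9 CPM in Put, giving a log2 fold change of -0.41 (SE 0.060, adjusted p = 1.11e-07). A pseudogene on its other strand had 269 counts in all, against 3752 for *YODA* itself. The D09 copy (LOC107901452) had 46.1, 44.0 and 45.8 CPM in CK and 37.7, 35.6 and 38.8 CPM in Put, giving a log2 fold change of -0.28 (SE 0.055, adjusted p = 4.60e-05). *YODA* on A05 (LOC107959605), the most expressed MAPKKK gene per length at 18.9 FPKM, had 41.4, 45.6 and 43.9 CPM in CK and 44.5, 47.2 and 42.8 CPM in Put, with overlapping groups and a log2 fold change of 0.04 (SE 0.054).

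*MAPKKK5*, which in Arabidopsis links chitin and flagellin receptors to MPK3 and MPK6, was lower in 3 and higher in 1 of 8 genes. The gene on A05 (LOC107887015) had 18.6, 19.2 and 18.2 CPM in CK and 15.5, 15.6 and 15.3 CPM in Put, giving a log2 fold change of -0.27 (SE 0.083, adjusted p = 0.00697). The other calls were less firm. On D11 (LOC107911987) the log2 fold change was -0.34 (adjusted p = 0.0169), and it was -0.23 (adjusted p = 0.162) without Put replicate 2. On D05 (LOC107940693) it was -0.23 with overlapping groups (adjusted p = 0.0474, and 0.0542 with the replicate number as a block). DESeq2 gave an adjusted p of 0.107 for the D05 gene, whose call was lost in 10 of the 16 alternative fits. On D12 (LOC107945299), with 2.54, 1.53 and 2.70 CPM in CK and 3.79, 3.21 and 2.87 CPM in Put, it was 0.55 (adjusted p = 0.0451), and 0.33 (adjusted p = 0.279) without CK replicate 2.

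The MAPKKK genes of the cytokinesis branch and the remaining classes held few DEG. *ANP1* on D11 (LOC107958662) had 5.35, 4.18 and 5.04 CPM in CK and 3.96, 4.17 and 2.52 CPM in Put, giving a log2 fold change of -0.45 (SE 0.18, adjusted p = 0.0419), and without Put replicate 3 it was -0.26 (adjusted p = 0.305). *ANP1* on A11 and the *NPK1* genes on A09 and D09 were not DEG. *MAPKKK1* was lower in 1 of 4 genes, that on D05 (LOC107942035) at a log2 fold change of -0.21 (adjusted p = 0.037, DESeq2 0.0799), a call lost in 9 of the 16 alternative fits, and all 4 lay below 0, between -0.21 and -0.097. The 3 *MAPKKK3* genes were not DEG and lay between -0.11 and -0.015.

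The count of lower MAPKKK genes depended on the fit. It was 7 with edgeR, 4 with DESeq2 and 3 with limma on log2(FPKM + 1). With library offsets that vary with gene length, 6 MAPKKK genes were higher and 2 lower, in place of 6 and 7. The lower genes that remained were *YODA* on A09, at a log2 fold change of -0.28 (adjusted p = 1.9e-04), and *MAPKKK5* on A05, at -0.22 (adjusted p = 0.0373). *YODA* on D09 then had a log2 fold change of -0.13 (adjusted p = 0.064).

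Upland cotton carries an A and a D subgenome, so most genes have a copy on the chromosome of the same number in the other one. Genes of the same class that were single on both chromosomes were taken as copies, which gave 38 pairs. This rule leaves out any copies that lie on A and D chromosomes of different numbers. The *D5* genes on A03 and D02, for example, were not paired. In 8 pairs both copies were DEG in the same direction, in 0 in opposite directions, in 13 only one copy was a DEG, and in 17 neither was. The same counts for pairs of all tested genes are not given here, so these describe the cascade only. Of the 53 genes on A chromosomes, 12 were higher and 6 lower (34%), against 36.6% of all tested genes. Of the 49 on D chromosomes, 9 were higher and 11 lower (40.8%), and the difference between A and D was not tested. How reads that match both copies were assigned is not given in the sources used here, so counts could have been exchanged between close copies.

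The pairs with both copies changed were the *MAPK3* pairs on chromosomes 03 and 05, *MMK1* on 02, *MAPK20* on 09, *MAPKK2* on 06, *MAPKKK18* on 10, *MAPKKK5* on 05 and *YODA* on 09. Among their calls, those for *MMK1* on A02 and *MAPKKK5* on D05 were lost most often, in 7 and 10 of the 16 alternative fits. The ratio of the A to the D copy did not overlap between CK and Put in 8 pairs, or 21.1%, against 28% of 7255 pairs formed in a like manner from the descriptions of all tested genes. For a single pair the exact permutation test, two-sided, cannot give less than p = 0.1 with 3 samples against 3, so the ratios are given as values. In *MAPKKK18* on 10 the log2 ratio of A to D FPKM was -1.24 ± 0.103 (SD, n = 3) in CK and -0.64 ± 0.314 in Put. The level of this ratio depends on the gene lengths used, 3227 bp for A and 1540 bp for D, whereas its change does not. Before division by length, the CK counts of the copies, given above, were alike. In *MMK1* on 02 it was -0.27 ± 0.178 in CK and -0.67 ± 0.298 in Put. In *MAPK9* on 11 it was 0.049 ± 0.196 in CK and 0.44 ± 0.121 in Put, where only the A copy was a DEG. In *MAPK3* on 05 it was 1.22 ± 0.197 in CK and 1.26 ± 0.018 in Put, with overlapping ranges.

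**Figure D4:**
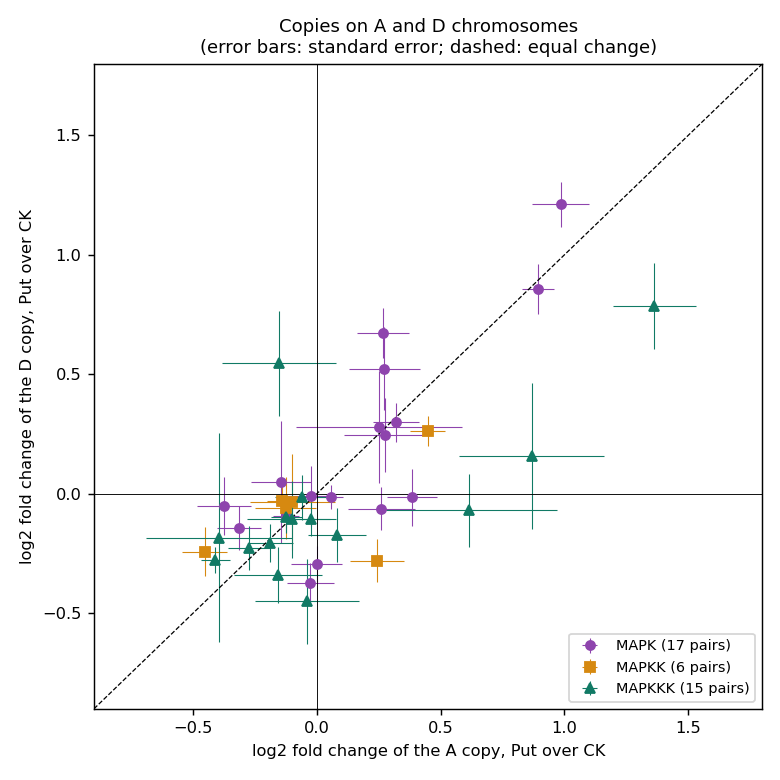
Log2 fold change of Put over CK of the A copy (horizontal axis) and the D copy (vertical axis) for the 38 pairs, with standard errors derived from the edgeR fit, by tier. Points on the dashed line changed equally. Both *MAPK3* pairs lie at the upper right near the line, and *MAPKKK18* on 10 lies below it, at 1.36 for A and 0.79 for D.

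The genes that surround the cascade were taken by their descriptions. Upstream, 39 genes for receptors and co-receptors were tested, of which 7 were higher and 16 lower (59%, against 36.6% of all tested genes). Most of the lower ones were described as *HSL1*, a receptor-like kinase related to HAESA of the floral abscission pathway. All 11 tested *HSL1* genes were lower, with log2 fold changes from -0.87 to -0.36. The most changed (LOC107953854 on D07) had 36.0, 34.2 and 38.3 CPM in CK and 19.8, 18.6 and 21.0 CPM in Put (SE 0.069, adjusted p = 1.22e-15). *ERL1*, a stomatal receptor upstream of YODA in Arabidopsis, was lower in 2 of 3 genes, *ERECTA* was higher in 1 of 3, and the *BAK1* co-receptor was higher in 2 and lower in 2 of 8.

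The opposite change was seen in *EFR*, the receptor of a bacterial elongation factor in Arabidopsis, which was higher in 2 of 3 genes. *EFR* on A01 (LOC107934163) had 11.0, 11.4 and 10.2 CPM in CK and 30.5, 33.9 and 27.9 CPM in Put, giving a log2 fold change of 1.498 (SE 0.084, adjusted p = 1.38e-21). The 14 tested genes for peptide ligands were all of the epidermal patterning factor family. Of them, 3 were higher and 2 lower (35.7%, against 36.6% of all tested genes). Individual genes and classes of the surrounding lists that are named here were chosen after their values were seen.

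Other kinases linked with the cascade had 44 tested genes, and 7 were higher and 11 lower (40.9%, against 36.6% of all tested genes). They included *CTR1*, the Raf-like kinase of ethylene signaling, which was lower in 4 and higher in 1 of 11 genes. *CTR1* on D05 (LOC107905147) fell most, from 6.39, 7.14 and 7.01 CPM in CK to 1.87, 1.90 and 1.94 CPM in Put, giving a log2 fold change of -1.84 (SE 0.18, adjusted p = 7.36e-13). The strongly expressed *CTR1* on D06 (LOC121218203) had 107, 111 and 112 CPM in CK and 63.2, 62.0 and 59.995 CPM in Put, giving a log2 fold change of -0.83 (SE 0.040, adjusted p = 2.89e-24). Another *CTR1* on D05 (LOC107904191) was higher, at a log2 fold change of 0.46 (adjusted p = 4.75e-09).

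Genes taken as MAPK phosphatases by description had 36 tested members, with 5 higher and 11 lower (44.4%, against 36.6% of all tested genes). A gene described as an inactive phosphatase was among them, and whether each acts on MAPK was not tested. *MKP1*, which dephosphorylates MPK3 and MPK6 in Arabidopsis, made up most of the lower genes. All 8 tested *MKP1* genes were lower, with log2 fold changes from -0.67 to -0.27 and adjusted p of at most 7.55e-04. *MKP1* on D10 (LOC107930729) had 26.3, 25.3 and 26.7 CPM in CK and 18.1, 17.6 and 16.0 CPM in Put, giving a log2 fold change of -0.60 (SE 0.076, adjusted p = 4.05e-09). *MKP1* on A01 (LOC107916597) had 10.2, 12.1 and 9.98 CPM in CK and 5.99, 8.15 and 6.22 CPM in Put, the largest decrease at -0.67 (SE 0.13). The CK and Put samples did not overlap in any of the 8, and between 7 and 8 of them passed under each alternative fit.

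**Figure D5:**
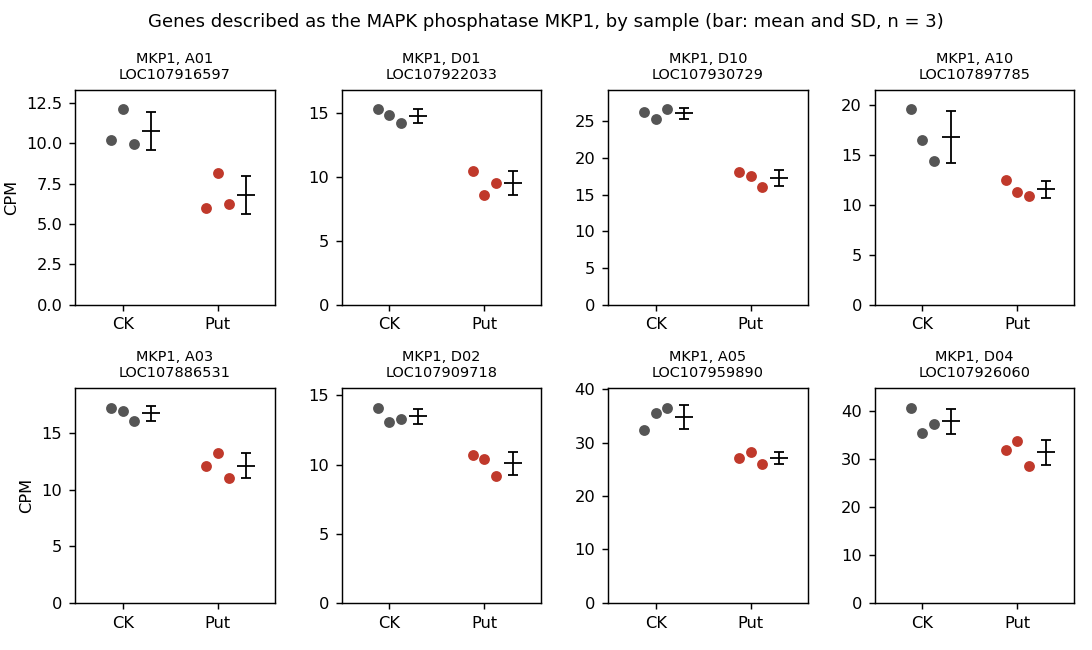
CPM (vertical axis, from 0, scaled to each gene) of the 8 genes described as the MAPK phosphatase *MKP1* in each sample of CK (grey) and Put (red), with the mean and SD (n = 3) beside the points. All Put points lie below all CK points in each panel, with log2 fold changes from -0.67 to -0.27.

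Both *PTP1* genes, whose tyrosine phosphatase acts beside MKP1 in Arabidopsis, were also lower, at log2 fold changes of -0.31 and -0.23, and *IBR5* was lower in 1 of 6. The higher phosphatase genes were 1 each of the dual specificity phosphatases *1*, *1B*, *12* and *PHS1* and of the protein phosphatase *2C 25* class. The last, LOC107927017 on D03, belongs to the AP2C family that inactivates stress MAPK, and had 2.91, 3.11 and 3.22 CPM in CK and 5.77, 6.55 and 6.28 CPM in Put, giving a log2 fold change of 1.01 (adjusted p = 1.02e-06). The other 10 genes of the *2C 25* class were not DEG.

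Downstream, 54 genes for transcription factors and enzymes known as MAPK substrates or targets were tested. Of these, 8 were higher and 19 lower (50%, against 36.6% of all tested genes). *EIN3*, the transcription factor of ethylene signaling described as a MAPK substrate in Arabidopsis, was lower in 7 of 8 genes and higher in 0. *EIN3* on A13 (LOC107931022) had 144, 149 and 156 CPM in CK and 101, 100 and 95.1 CPM in Put, giving a log2 fold change of -0.60 (SE 0.036, adjusted p = 1.39e-20). *WRKY33*, a substrate of MPK3 and MPK6 in Arabidopsis, was lower in both tested genes. The A04 copy (LOC107948975) had 29.96, 27.7 and 23.7 CPM in CK and 19.7, 18.7 and 18.3 CPM in Put, at -0.52, and the D04 copy (LOC107899596) was at -0.50. By contrast, *ICE1*, which MPK3 and MPK6 destabilize in the cold response, was higher in 3 and lower in 1 of 7 genes.

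NPK1, its kinesin activator NACK1 and the microtubule-associated protein MAP65 act in a cytokinesis branch in tobacco. The list for this branch had 7 higher and 8 lower of 50 tested genes (30%, against 36.6% of all tested genes). The list took in every kinesin described as *KIN-7*, the family of NACK1. Of the higher genes, 5 were *KIN-7D*, described as mitochondrial, and 2 were *KIN-7K*, described as chloroplastic. Whether these act in cytokinesis was not tested. The largest change was in *KIN-7D* on A13 (LOC107913537), from 32.2, 32.6 and 28.2 CPM in CK to 63.2, 64.6 and 60.1 CPM in Put. Its log2 fold change was 1.01 (SE 0.055, adjusted p = 4.88e-22). *NACK1* itself was lower in 1 of 4 genes and *MAP65-1* in 1 of 6, and neither class held a higher gene.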

How the data were processed

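Reads of 6 ovule samples were aligned by the authors with HISAT2 2.0.5 to Gossypium_hirsutum_v2.1, per the labels and the study's methods, and the counting program and strand setting are not given in the sources used here. The authors deposited raw counts per gene and FPKM, which equal counts divided by gene length and by a library size proportional to DESeq2's size factors. The RefSeq gene table held all 103 genes, 100 of them at the same coordinates.

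Counts were fitted in R 4.3.3 with edgeR 4.0.16 (filterByExpr, TMM, quasi-likelihood test, Benjamini-Hochberg adjustment over 51764 genes). The standard error was derived from the log2 fold change and F statistic. Alternatives used DESeq2 1.42.0, limma 3.58.1 on log2 FPKM (pseudocount 1 or 0.1, mean FPKM 0.5 or more), other scalings and filters, stricter thresholds, offsets that follow gene length, the replicate number as a block, and each replicate left out. The edgeR fit, the edgeR fit with length offsets, DESeq2 and limma with pseudocount 1 were tested on simulated counts. The other alternatives were not. Sequences of proteins and promoters were not analysed here.

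The genes, pathway lists and markers were chosen with earlier results of these data known. Genes named per tier were DEG past a log2 fold change of 1 in either direction, up to 6 DEG per direction with the largest changes, the 3 most expressed genes and the other copy of each. *MAPK4* on A07, the higher *MAPK9* and *MAPK20* genes, *MAPK19* on A11 and D05 and *MAPKKK1* on D05 were added after their values were seen.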

Additional observations from a re-analysis of the deposited data

How the results depend on the processing

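Of the 38 DEG, 17 passed in every alternative fit, 11 higher and 6 lower, among them all 4 *MAPK3* genes, *MAPKK2* on A06 and D06, *MAPKKK18* on A10 and D10 and *YODA* on A09. DESeq2 retained 27 of the 38, the offsets that follow gene length 29, and the replicate block 36, with 18 MAPK, 6 MAPKK and 12 MAPKKK DEG. Deviations of same-numbered CK and Put samples correlated at -0.005, -0.009 and -0.013, so no effect shared by a number was seen over the tested genes. These values cannot show whether same-numbered samples were handled together.

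The number of MAPK DEG was 19, and 12 with limma on log2(FPKM + 1) without a filter and 1 with a minimum log2 fold change of 1 either way. The number of MAPKK DEG was 6, and 3 at an adjusted p under 0.01 and 0 with a minimum log2 fold change of 1 either way (edgeR). The number of MAPKKK DEG was 13, and 8 with DESeq2, 6 with limma on log2(FPKM + 0.1) or log2(FPKM + 1), 7 without a filter on FPKM, 8 with offsets that follow gene length, 6 at an adjusted p under 0.01 and 2 with a minimum log2 fold change of 1 either way, where 2963 of all tested genes passed. Without TMM, 9 MAPK genes were higher and 9 lower, and 4 MAPKK genes higher and 4 lower, and the median of all genes moved to -0.024. The MAPK median was then -0.038, and 0.017 with length offsets. The MAPKKK median was -0.061 with limma on log2(FPKM + 1), with or without the filter, and -0.013 with length offsets. Without one replicate, DEG numbered 15 to 19 for MAPK, 4 to 6 for MAPKK, 8 to 12 for MAPKKK and 16839 to 17055 for all genes, and the medians lay from -0.014 to 0.020, from -0.056 to 0.011 and from -0.096 to -0.022.

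The sign turned under at least one alternative in 32 of the 103 genes, 0 of them DEG, and with length offsets in 14. Among the genes named by rule it turned in 8. With length offsets the log2 fold change was 0.038 for LOC107931015 (0.00083 without a filter), 0.0090 for LOC107912015, 0.012 for LOC107933929, 0.017 for LOC107914278, 0.019 for LOC107911772 and 0.0022 for LOC107887352. Without one replicate it ranged from -0.059 to 0.057 for LOC107931015, from -0.059 to 0.0014 for LOC107933929, from -0.14 to 0.0075 for LOC107914278, from -0.082 to 0.048 for LOC107911772, from -0.40 to 0.29 for LOC107887352, from -0.30 to 0.18 for LOC107933422 and from -0.30 to 0.025 for LOC107944011. The cause was not tested. Depth limits the *MAPKKK18* and *MAPKKK20* genes most, which lay nearest to the count minimum.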
